A study of Rattus norvegicus with 12 samples.

Results

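The genes described here are 10 genes of the endoplasmic reticulum (ER) stress response. They are Atf4, Ddit3 and Xbp1, which encode transcription factors, Herpud1, a component of ER-associated degradation, the chaperones Hspa5 and Calr, the disulfide isomerases Pdia4 and Txndc5, and the stress-induced secretory pathway proteins Creld2 and Manf. They were chosen by name, as the rows of the deposited expression table whose symbol is one of these 10, and are 10 of the 10729 genes kept from that table. Values are FPKM, fragment counts scaled by transcript length and by the mapped fragments of the library. The length scaling lets levels of different genes be set side by side. FPKM are relative within a library, so comparisons between libraries depend on the scaling. All 10 genes reached 1 FPKM in 3 or more of the 12 libraries and so entered the tests, as did 10689 genes in all.

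Polyadenylated RNA was sequenced from neuron-enriched hippocampal cultures of CD IGS (Sprague Dawley) rat embryos of both sexes, kept for 7 days in vitro. Cultures were infected on day 1 with a lentivirus carrying either the empty pLKO.1 vector (Ctrl) or 1 shRNA in that vector (KD) against Grin3a, which encodes the GluN3A subunit of NMDA receptors. All cultures received 1 µM tetrodotoxin (TTX), a blocker of voltage-gated sodium channels that silences action potentials, from day 5 for 48 h, and the TTXwd groups were then taken out of TTX for 6 h. The 4 groups, Ctrl_TTX, KD_TTX, Ctrl_TTXwd and KD_TTXwd, had 3 libraries each. No group used here was left without TTX or without a virus, and the knockdown rests on 1 shRNA. The control vector, given as empty, would carry no hairpin, while the deposited column headings write the control as scr. Libraries are written below by group and replicate number, as in KD_TTX 1. The labels call the replicates biological without naming the cultures behind them, so a p-value here reflects the spread of these particular libraries, part of which may be technical.

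The ER folds secreted and membrane proteins, and unfolded protein in it releases the chaperone BiP (Hspa5) from the membrane sensors PERK, IRE1 and ATF6. PERK phosphorylates the translation factor eIF2α, which favours translation of Atf4 mRNA, and ATF4 in turn drives Ddit3, the gene for CHOP. IRE1 splices Xbp1 mRNA, and the spliced XBP1 protein and the cleaved ATF6 fragment induce ER chaperones and degradation factors. In neurons the phosphorylation of eIF2α also takes part in the control of protein synthesis by synaptic activity. Gene-level FPKM report neither the splicing of Xbp1 nor the translation of Atf4.

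ER stress genes share short promoter elements, so the promoters of the 10 genes were searched for 4 of them on both strands. The windows are RefSeq promoters of the GRCr8 assembly, 250 bases before to 50 bases after the annotated start, and 9 of the 10 genes had an entry; Manf was not among them. The elements were the ER stress response element ERSE (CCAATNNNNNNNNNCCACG), ERSE-II (ATTGGNCCACG), the core of the unfolded protein response element UPRE (TGACGTG) and the core of the amino acid response element CARE (TGATGNAAT). ERSE was present in 4 of the 9 promoters, those of Hspa5, Xbp1, Calr and Creld2, against 21 of 27457 RefSeq promoters (0.076%) and 0.183% of the 8767 promoters of genes in the expression table. ERSE-II was present in the Herpud1 promoter, against 0.055% of all promoters and 0.103% of those of genes in the table. The UPRE core was present in the Hspa5 promoter, against 1.876% of all promoters and 2.521% of those of genes in the table, and did not overlap the ERSE. The CARE core was found in none of the 9, against 1.049% of all promoters and 0.433% of those of genes in the table. The promoters of Atf4, Ddit3, Pdia4 and Txndc5 held none of the 4 strings within these windows. A match is a string of letters and not a measured binding site. The elements were searched because ER stress genes share them, so these counts are no test of enrichment. The 5 promoters with a match are shown because these genes carry the shared elements, 5′ to 3′ along each gene, with each match in capitals.
Hspa5, chr3:38452766-38453065, plus strand, capitals UPRE core and ERSE: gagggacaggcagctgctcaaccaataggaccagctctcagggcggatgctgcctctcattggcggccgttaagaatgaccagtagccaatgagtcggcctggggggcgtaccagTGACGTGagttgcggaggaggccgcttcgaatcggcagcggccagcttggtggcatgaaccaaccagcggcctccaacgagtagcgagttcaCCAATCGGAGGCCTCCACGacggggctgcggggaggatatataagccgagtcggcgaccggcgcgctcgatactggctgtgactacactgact
Xbp1, chr14:84604373-84604672, plus strand, capitals ERSE: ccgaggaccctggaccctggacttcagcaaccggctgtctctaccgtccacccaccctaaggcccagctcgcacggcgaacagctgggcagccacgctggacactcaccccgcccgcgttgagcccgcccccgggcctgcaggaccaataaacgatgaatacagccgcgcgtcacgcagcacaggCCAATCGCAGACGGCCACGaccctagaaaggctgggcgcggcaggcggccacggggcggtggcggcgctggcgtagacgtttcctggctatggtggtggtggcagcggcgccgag
Calr, chr19:40213117-40213416, plus strand, capitals ERSE: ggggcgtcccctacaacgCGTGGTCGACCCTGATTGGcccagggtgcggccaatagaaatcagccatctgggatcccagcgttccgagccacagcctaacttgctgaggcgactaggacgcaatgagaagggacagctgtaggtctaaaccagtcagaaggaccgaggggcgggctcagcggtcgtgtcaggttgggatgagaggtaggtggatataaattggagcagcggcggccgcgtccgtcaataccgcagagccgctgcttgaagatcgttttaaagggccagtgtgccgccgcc
Creld2, chr7:121789134-121789433, plus strand, capitals ERSE: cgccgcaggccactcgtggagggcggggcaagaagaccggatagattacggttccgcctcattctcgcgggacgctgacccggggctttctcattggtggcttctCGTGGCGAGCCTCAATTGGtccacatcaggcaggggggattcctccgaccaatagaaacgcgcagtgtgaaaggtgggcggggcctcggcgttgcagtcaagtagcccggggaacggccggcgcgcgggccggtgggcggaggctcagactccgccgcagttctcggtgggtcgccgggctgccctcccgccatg
Herpud1, chr19:10614658-10614957, minus strand, capitals ERSE-II: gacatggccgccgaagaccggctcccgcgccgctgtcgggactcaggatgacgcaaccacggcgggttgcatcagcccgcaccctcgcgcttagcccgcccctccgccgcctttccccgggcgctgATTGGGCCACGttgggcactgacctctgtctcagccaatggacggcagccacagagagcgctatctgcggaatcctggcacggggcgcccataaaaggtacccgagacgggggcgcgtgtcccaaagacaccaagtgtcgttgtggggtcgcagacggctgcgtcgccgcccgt
Counted from the annotated start, with negative positions before it, the ERSE lay at -43 to -25 in Hspa5 and at -65 to -47 in Xbp1, both on the strand of the gene. It lay at -232 to -214 in Calr and at -145 to -127 in Creld2, both on the opposite strand, so the capitals begin with CGTGG and end with ATTGG. The ERSE-II of Herpud1 lay at -124 to -114, and the UPRE core of Hspa5 at -135 to -129.

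In the deposited table, which uses build rn5, Manf lies on chromosome 8 (114983284 to 114985238, minus strand) and Hspa5 on chromosome 3 (19157873 to 19162333, plus strand). Atf4 (121468537 to 121470596), Ddit3 (70754397 to 70776456) and Creld2 (129501500 to 129508348) lie on the plus strand of chromosome 7. Xbp1 lies on the plus strand of chromosome 14 (86423838 to 86428923), Pdia4 on the minus strand of chromosome 4 (142140945 to 142159845) and Txndc5 on the plus strand of chromosome 17 (28841030 to 28869179). Calr (36932393 to 36937289) and Herpud1 (11027628 to 11037976) lie on the minus strand of chromosome 19. The strand of Calr differs between the builds, minus in rn5 and plus in GRCr8, as each source gives it. Each entry is the whole locus, from which the authors' gene value was made.

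The number of reads per library is not given in the sources used here, so counting error cannot be stated; summed FPKM per library ranged from 428069.5 to 517703. Grin3a was 18.6, 18.2 and 23.0 FPKM in Ctrl_TTX and 9.30, 6.01 and 4.77 FPKM in KD_TTX, which left 33.6% of the control mean and no overlap (exact permutation p = 0.1, two-sided, the smallest that 3 against 3 allow). After withdrawal it was 13.8, 19.8 and 4.88 FPKM in Ctrl_TTXwd and 5.22, 3.32 and 2.502 FPKM in KD_TTXwd. The library labelled Ctrl_TTXwd 3 therefore had no more Grin3a than some knockdown libraries. It also had the highest summed level of 10 microglia markers, 1593 FPKM against 713 and 92.0 FPKM in the other Ctrl_TTXwd libraries, and the lowest of 8 glutamatergic neuron markers, 136.5 FPKM against 396 and 558 FPKM. Values without this library are given below beside the results that include it. Pan-neuronal markers were present in every library, with sums from 853 to 3698 FPKM over 6 of 6 genes, and no marker of the neuronal, astrocyte or microglia lists was at 0 in every library. In RNA from mixed cultures, a change in the share of a cell type and a change of RNA per cell cannot be told apart.

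The 10 genes differed in level and in how much they varied. Calr, which encodes the calcium-binding lectin chaperone calreticulin, had the highest mean over the 12 libraries, 478 FPKM, and ranked 86th of 10729 genes. Hspa5 followed with 366 FPKM and Atf4 with 299 FPKM. Xbp1 (97.3 FPKM), Ddit3 (90.4 FPKM) and Manf (85.8 FPKM) formed a middle group, and Pdia4 (60.0 FPKM), Herpud1 (50.4 FPKM), Txndc5 (48.8 FPKM) and Creld2 (20.9 FPKM) were lowest. All but Creld2, which ranked 5052nd, were therefore among the more abundant genes of the table. Calr and Xbp1 varied least, by 1.60-fold and 1.61-fold between their lowest and highest libraries, and their SD over the libraries exceeded that of only 13.7% and 8.45% of the genes tested (log2(FPKM + 1) scale). Ddit3 varied most, 6.50-fold, followed by Txndc5 (5.56-fold) and Manf (4.76-fold); the SD of Manf exceeded that of 94.3% of the genes. The fold is the highest FPKM over the lowest.

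**Figure D1:**
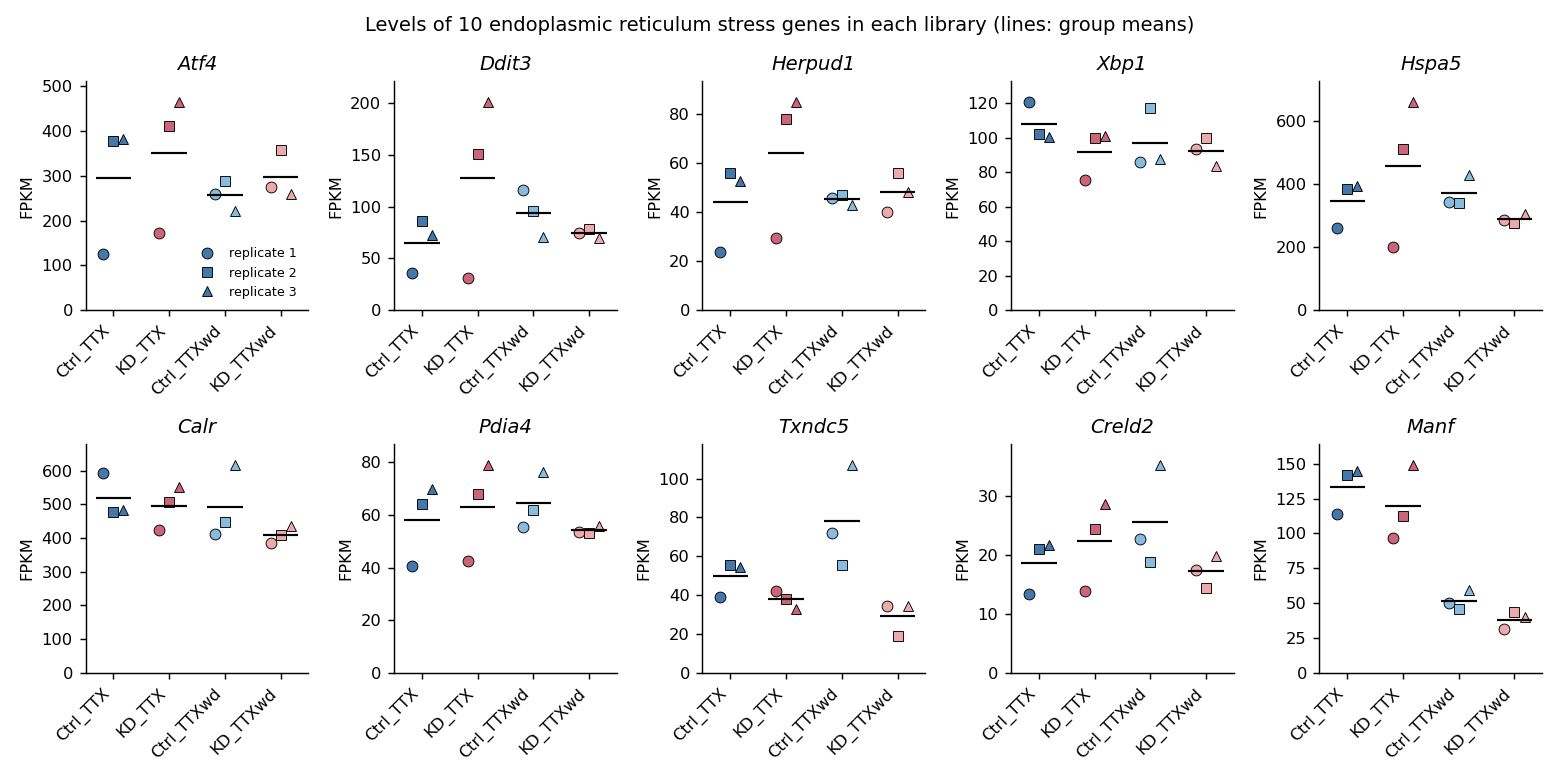
FPKM of the 10 genes in each library (1 panel per gene, axis from 0; circles, squares and triangles are replicates 1, 2 and 3, and lines are group means). Manf separates the TTX groups, at 96.7 to 149 FPKM, from the withdrawal groups, at 31.4 to 59.5 FPKM, and Atf4, Ddit3 and Herpud1 are lowest in replicate 1 of both TTX groups.

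The first question was whether these genes changed when action potentials were allowed to return. Of the 10 genes, 1 passed the test with withdrawal, in control cultures and with knockdown alike: Manf, which encodes a secreted neurotrophic factor that is retained in the ER by binding BiP. Manf was 114, 142 and 145 FPKM in Ctrl_TTX and 49.8, 45.65 and 59.5 FPKM in Ctrl_TTXwd. With the knockdown it was 96.7, 112.5 and 149 FPKM in KD_TTX and 31.4, 43.7 and 39.8 FPKM in KD_TTXwd. Every withdrawal library lay below every TTX library, in both arms. Groups that did not overlap were common among all genes, 16.1% higher and 19.6% lower in control cultures and 20.2% higher and 23.8% lower with knockdown. The mean fell from 134 ± 17.3 (SD, n = 3) to 51.7 ± 7.13 FPKM in control cultures, 38.7% of the TTX level, and from 119.5 ± 27.0 to 38.3 ± 6.29 FPKM with knockdown, 32.1% of it.

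In limma, fitted over all genes tested on log2(FPKM + 1) with Benjamini-Hochberg adjustment and a threshold of 0.05, the log2 change of Manf was -1.35 ± 0.20 (SE; adjusted p = 0.00357) in control cultures. It was -1.61 ± 0.20 (adjusted p = 0.00258) with knockdown. The same test called 17.7% of all genes in control cultures (6.61% higher and 11.1% lower) and 14.2% with knockdown (4.95% higher and 9.22% lower), so 1 of 10 genes is near the share of all genes called. The share of these calls that were higher depended on scaling: 37.3% in control cultures and 34.9% with knockdown as deposited, against 47.1% and 50.4% after quantile normalization, under which Manf stayed lower and past the threshold. All 6 withdrawal libraries lay below all 6 TTX libraries for Manf among the 10 genes and for 8.63% of all genes, while 6.31% were higher without overlap. The call in control cultures rested on the spread estimated over all 12 libraries: with only the 6 libraries compared, the log2 change was again -1.35 (adjusted p = 0.0615). Without any 1 of the 12 libraries, Manf stayed past the threshold in both arms.

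The withdrawal responses of Manf did not differ detectably between the arms. The difference in log2 change, knockdown minus control, was -0.25 (95% interval -0.87 to 0.36; adjusted p = 0.715). Averaged over both arms, the log2 change was -1.48 ± 0.14 (SE; adjusted p = 0.000159), in a comparison that called 31.7% of all genes (13.3% higher and 18.4% lower), and Manf was again the 1 gene of the 10 that passed. Without the library labelled Ctrl_TTXwd 3 the log2 change of Manf in control cultures was -1.46 (adjusted p = 0.00826). Some neuron markers were lower after withdrawal as well. Averaged over both arms, 6 of 8 glutamatergic and 2 of 6 pan-neuronal markers, Rbfox3 (-1.80) and Tubb3 (-1.79), were called lower and none higher. Of 7 GABAergic markers tested, 4 were called lower and 2 higher, Gad1 (1.03) and Gad2 (0.57). In control cultures alone, 5 of 8 glutamatergic and 2 of 6 pan-neuronal markers were called lower. With knockdown it was 1 of 8 and 1 of 6. The summed glutamatergic markers ranged from 799 to 837 FPKM in Ctrl_TTX, 136.5 to 558 FPKM in Ctrl_TTXwd, 550.2 to 681 FPKM in KD_TTX and 324 to 454 FPKM in KD_TTXwd, with none at 0 in every library. The pan-neuronal sums were 2970 to 3698, 853 to 3115, 2282 to 2653 and 1839 to 3322 FPKM in the same order, and overlapped between TTX and withdrawal in both arms. Their part in the fall of Manf was not tested.

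Hspa5, whose chaperone binds MANF protein, did not pass the test. It was 260.3, 385 and 396 FPKM in Ctrl_TTX and 343, 341 and 429 FPKM in Ctrl_TTXwd, with a log2 change of 0.11 (95% interval -0.68 to 0.91), or 0.0037 without the library labelled Ctrl_TTXwd 3. It was 199.6, 513 and 661 FPKM in KD_TTX and 285, 275 and 306 FPKM in KD_TTXwd, with a log2 change of -0.50 (95% interval -1.29 to 0.30; adjusted p = 0.384). The groups overlapped in both arms, and KD_TTX 1 was the lowest of the 12 libraries. Without KD_TTX 1, Hspa5 passed the test with knockdown, with a log2 change of -1.01 (limma adjusted p = 0.0341), when 697 of all genes were called. Since the library left out was the lowest for Hspa5, this call is no independent evidence of a decrease. In FPKM, Manf was 0.366 to 0.437 of the level of Hspa5 in Ctrl_TTX and 0.134 to 0.145 of it in Ctrl_TTXwd. The ratio was 0.219 to 0.485 in KD_TTX and 0.110 to 0.159 in KD_TTXwd. This ratio was chosen after the values were seen and was not tested.

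The other 8 genes did not pass the test in either arm or averaged over both. For the transcription factor genes Atf4, Ddit3 and Xbp1 the log2 changes with withdrawal were -0.04, 0.59 and -0.16 in control cultures and -0.13, -0.40 and 0.01 with knockdown. Herpud1, whose ER membrane protein takes part in the degradation of misfolded protein, had 0.13 and -0.28. The lectin chaperone gene Calr had -0.09 and -0.26, and the disulfide isomerase gene Pdia4 had 0.17 and -0.17. Creld2 had 0.42 and -0.31, and Txndc5 had 0.61 and -0.39. The precision differed between genes: in control cultures the 95% interval ran from -0.55 to 0.23 for Xbp1 and from -0.65 to 1.83 for Ddit3. A fall of the size seen for Manf lies outside both of these intervals. With knockdown the interval of Ddit3, -1.64 to 0.84, includes the change of Manf. Without the library labelled Ctrl_TTXwd 3, the log2 changes in control cultures were 0.05 for Atf4 and Pdia4, 0.78 for Ddit3, -0.09 for Xbp1, -0.27 for Calr, 0.17 for Herpud1 and Creld2 and 0.35 for Txndc5, and none passed.

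**Figure D2:**
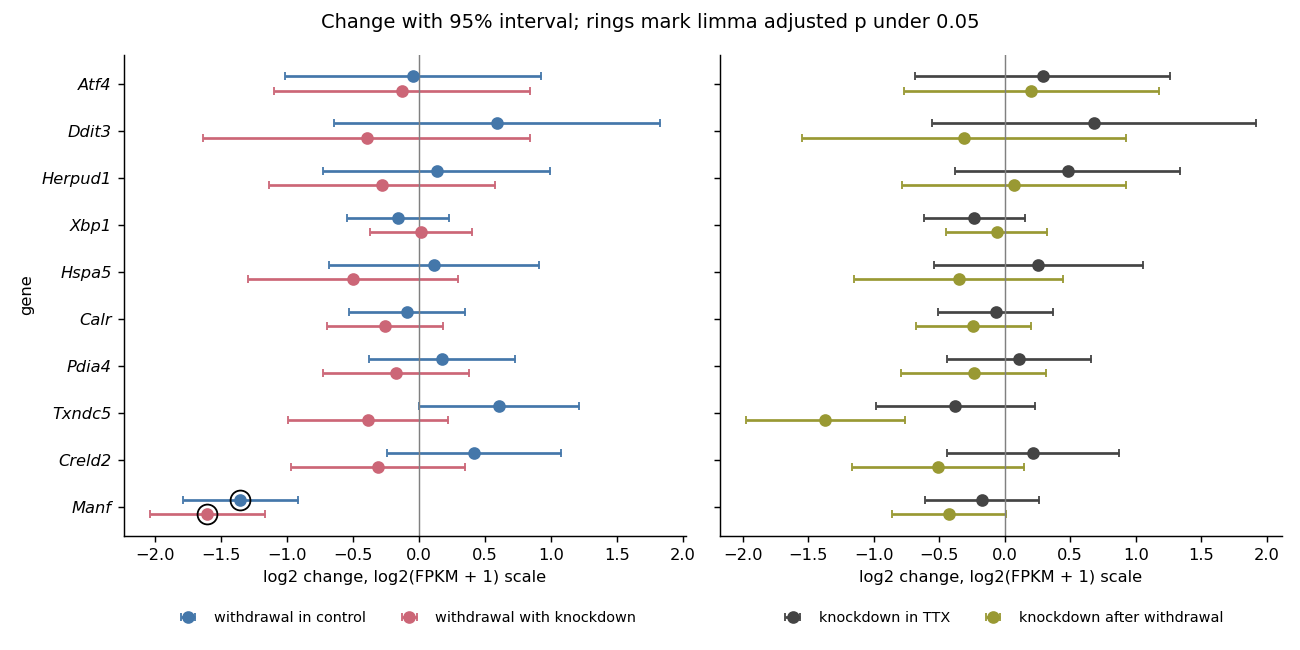
Log2 change of each gene with its 95% interval (limma, log2(FPKM + 1) scale), left for withdrawal in control and knockdown cultures and right for knockdown in TTX and after withdrawal. Rings mark adjusted p under 0.05: Manf alone carries them, at -1.35 and -1.61 with withdrawal, and the interval of Txndc5 for knockdown after withdrawal, -1.98 to -0.76, excludes 0 without a ring.

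Within the TTX groups, replicate 1 stood apart, and for the stress genes it was mostly the lowest library. It stood apart for most other genes as well, in both directions. In Ctrl_TTX it was below both other replicates for 45.4% of all genes tested and above both for 46.4%. In KD_TTX these shares were 43.0% and 42.1%. Atf4 was 125, 378 and 382 FPKM in Ctrl_TTX and 173, 411 and 464 FPKM in KD_TTX. Ddit3, the gene of the pro-apoptotic factor CHOP, was 35.8, 86.5 and 73.1 FPKM in Ctrl_TTX and 31.0, 151 and 201 FPKM in KD_TTX. Herpud1 was 23.8, 55.9 and 52.6 FPKM in Ctrl_TTX and 29.3, 77.9 and 85.0 FPKM in KD_TTX. In each case replicate 1 was far below the other replicates in both groups. Replicate 1 was 0.330 and 0.395 of the mean of replicates 2 and 3 for Atf4, in Ctrl_TTX and KD_TTX in that order. It was 0.449 and 0.176 of it for Ddit3, and 0.438 and 0.360 of it for Herpud1. These 3 genes were at or below 0.5 in both groups, as were 134 of the 10689 genes tested (1.254%).

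Replicate 1 was the lowest library of both TTX groups for 7 of the 10 genes (70.0%), against 29.5% of all genes tested. The other 4 were Hspa5, at 0.667 and 0.340 of replicates 2 and 3, Pdia4, at 0.605 and 0.577, Creld2, at 0.629 and 0.520, and Manf, at 0.792 and 0.738. Xbp1 and Calr were above replicates 2 and 3 in Ctrl_TTX, at 1.19 and 1.24, and below them in KD_TTX, at 0.750 and 0.799. Txndc5 was below in Ctrl_TTX, at 0.711, and above in KD_TTX, at 1.19. The median over the 10 genes was 0.648 and 0.548, against 1.00 and 0.995 over all genes. Neither withdrawal group showed this: the medians over the 10 genes were 0.887 in Ctrl_TTXwd and 0.983 in KD_TTXwd, and none of the 10 was at or below 0.5.

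**Figure D3:**
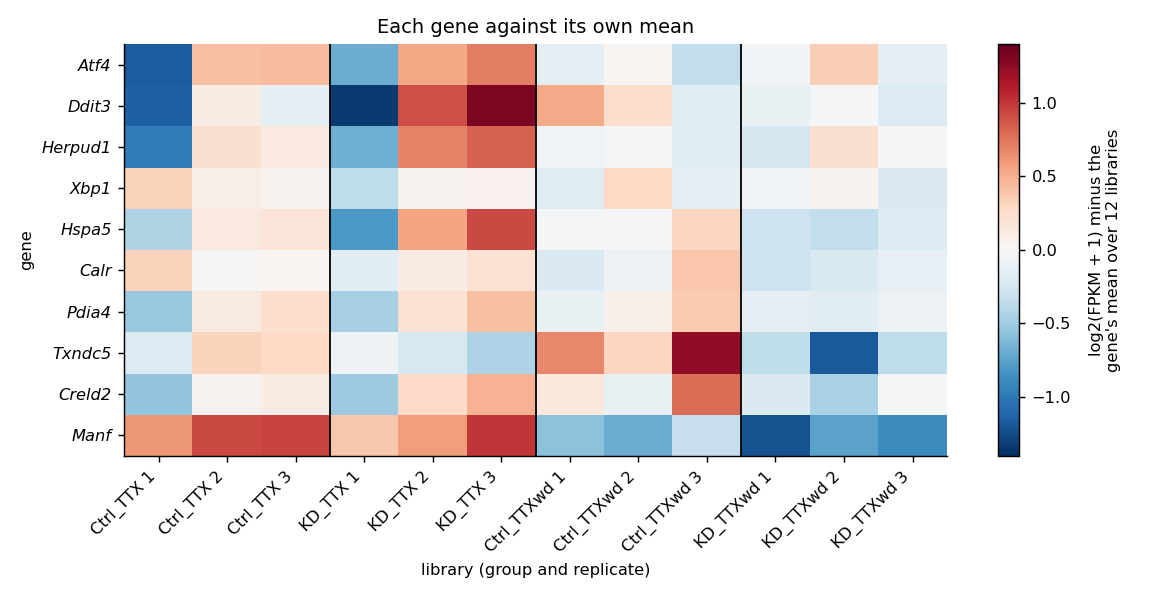
Log2(FPKM + 1) of each gene minus its mean over the 12 libraries (columns: libraries by group and replicate; blue below and red above the mean). Ctrl_TTX 1 and KD_TTX 1 are blue for Atf4, Ddit3, Herpud1, Hspa5, Pdia4 and Creld2, KD_TTX 3 is the darkest red for Ddit3, and Manf changes colour between the TTX and withdrawal groups.

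The known targets of ATF4 and CHOP were low in the same libraries. Of 28 such genes with a value, 22 (78.6%) were lowest in replicate 1 of both TTX groups, and 8 were at or below 0.5 of replicates 2 and 3 in both: Cars, Chac1, Ddit4, Eif4ebp1, Mthfd2, Pck2, Shmt2 and Stc2. They include the mitochondrial folate enzymes Mthfd2 and Shmt2, the cysteinyl-tRNA synthetase Cars and the glutathione-degrading enzyme Chac1. Of 34 ER chaperones and folding enzymes, 14 were lowest in replicate 1 of both groups, and Hyou1 and Sdf2l1 were at or below 0.5. The genes named here were picked for these ratios, after their values were seen. The counts were 14 of 25 for ER-associated degradation, 18 of 30 for translocation and signal peptide processing, 4 of 14 for relatives of the 10 genes and 3 of 14 for the stress sensors and transducers. The astrocyte markers moved the other way in the same libraries: their sum over 8 of 8 genes was 3474 FPKM in Ctrl_TTX 1 against 1534 and 1383 FPKM in replicates 2 and 3, and 3175 FPKM in KD_TTX 1 against 1596 and 1131 FPKM. Their part in the result was not tested. The labels give no batch, date or culture for any library.

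**Figure D4:**
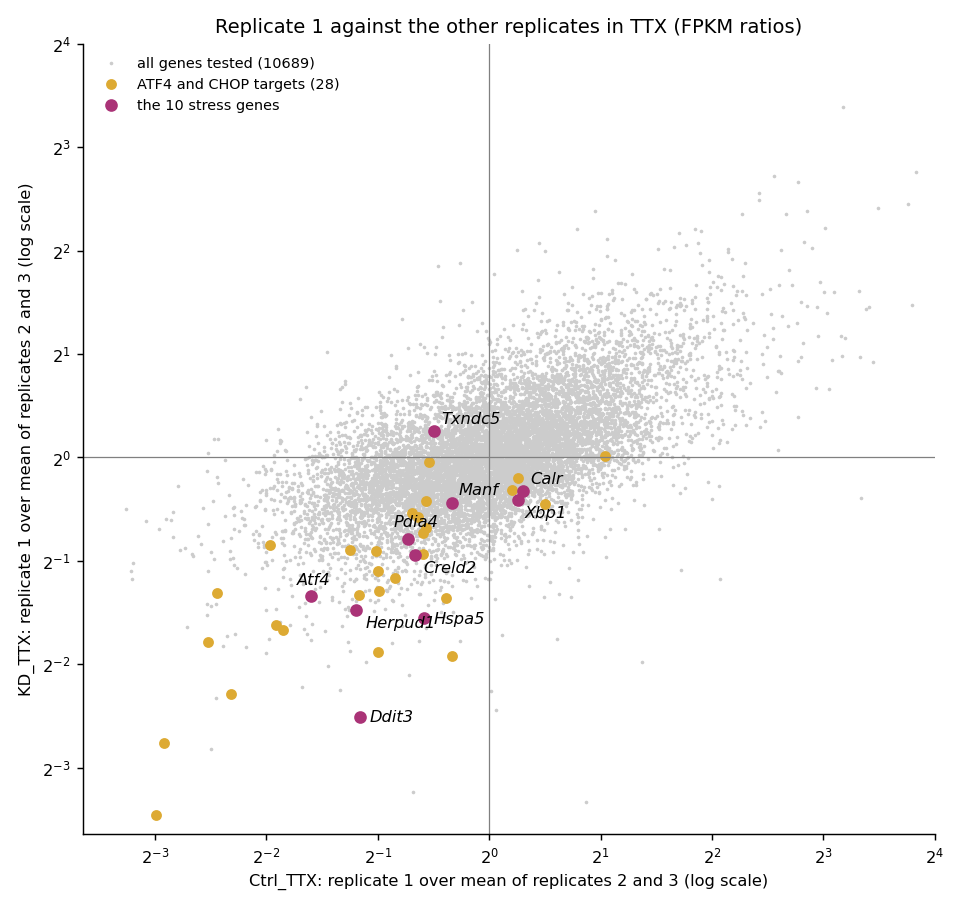
FPKM of replicate 1 over the mean of replicates 2 and 3, in Ctrl_TTX (horizontal) and KD_TTX (vertical), both on log axes; grey, all genes tested, of which 12 lie outside the axes; yellow, 28 ATF4 and CHOP targets; purple, the 10 genes. Atf4, Ddit3 and Herpud1 lie in the lower left with most of the ATF4 and CHOP targets, and Manf, at 0.792 and 0.738, lies nearer to 1.

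The number of the 10 genes called with withdrawal differed without replicate 1. When replicate number 1 was left out of all 4 groups, 4 genes passed as lower with withdrawal in the knockdown arm: Manf, Hspa5, Ddit3 and Herpud1, against 2.24% of all genes called higher and 5.59% called lower. Averaged over both arms, Atf4 passed as well, which made 5 of 10 genes lower, against 12.2% of all genes called higher and 17.9% called lower. The log2 changes averaged over both arms were then -0.52 for Hspa5 (adjusted p = 0.0427), -0.55 for Atf4 (adjusted p = 0.0429), -0.58 for Ddit3 (adjusted p = 0.0314) and -0.45 for Herpud1 (adjusted p = 0.0161), from limma. With all 12 libraries Ddit3 had 0.10, so its sign depends on these libraries. Leaving out replicate 1 in the TTX groups alone, an alternative chosen after the values were seen, gave the same 4 and 5 genes, against 12.7% and 22.5% of all genes called lower and 7.19% and 16.4% called higher. Since those libraries were doubted for the low level of these very genes, calls made without them are no independent evidence of a decrease. In control cultures the count stayed at 1 of 10 under both, against 9.84% of all genes called lower and 5.47% higher without replicate 1 of all groups, and 13.2% and 8.49% without it in the TTX groups. For Atf4 the log2 change in control cultures was -0.57 (adjusted p = 0.0546) without replicate 1 in the TTX groups, and for Hspa5 it was -0.08 (adjusted p = 0.747).

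The second question was whether reducing Grin3a changed these genes. None of the 10 passed the test with knockdown in TTX, where 0% of all genes were called by limma, although 412 of the 10689 genes and 0 of the 10 had an unadjusted p under 0.05. None of the 10 had groups that did not overlap in TTX, against 3.94% of all genes higher and 7.91% lower without overlap. The changes ranged from -0.38 for Txndc5 to 0.68 for Ddit3 on the log2 scale. Ddit3 averaged 65.1 ± 26.3 (SD, n = 3) FPKM in Ctrl_TTX and 128 ± 87.5 FPKM in KD_TTX, with groups that overlapped (95% interval of the log2 change -0.56 to 1.92). Herpud1 had a log2 change of 0.48 (95% interval -0.38 to 1.34) and Hspa5 one of 0.26 (95% interval -0.54 to 1.05). Libraries with the same number deviated together in TTX, and by number Atf4, Pdia4, Creld2 and Herpud1 were higher with knockdown in 3 of 3 pairs. After withdrawal Atf4 was higher in 3 of 3 pairs, Herpud1 in 2 and Xbp1 in 1. There Manf, Hspa5, Ddit3, Calr, Pdia4, Creld2 and Txndc5 were higher in 0 of 3. The share of all genes with such pairs is not given here, so these counts are not read as a result. With the replicate number as a block over the 6 TTX libraries, none of the 10 passed, and the lowest limma adjusted p was 0.448, for Herpud1. Without replicate 1 in the TTX groups, the log2 change with knockdown in TTX was 1.12 for Ddit3 (unadjusted p = 0.000896, limma adjusted p = 0.536), 0.58 for Hspa5 and 0.58 for Herpud1, and again none passed.

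After withdrawal, the gene with the lowest p was Txndc5, which encodes ERp46, a disulfide isomerase with thioredoxin domains. It was 71.8, 55.4 and 107 FPKM in Ctrl_TTXwd and 34.7, 19.3 and 34.6 FPKM in KD_TTXwd. The groups did not overlap, and the knockdown mean was 37.8% of the control mean. The log2 change was -1.37 ± 0.28 (SE, limma unadjusted p = 0.000393). It did not pass after adjustment over all genes (limma adjusted p = 0.263), in a comparison that called 0.00936% of them, 1 gene. In the same comparison 1276 of the 10689 genes had an unadjusted p under 0.05. In TTX it was 39.1, 55.6 and 54.5 FPKM in Ctrl_TTX and 42.3, 38.1 and 33.0 FPKM in KD_TTX, which overlapped. The difference between the withdrawal responses had a log2 value of -0.99 (95% interval -1.85 to -0.13; adjusted p = 0.492), from 0.61 in control cultures and -0.39 with knockdown, neither of which passed. Without the library labelled Ctrl_TTXwd 3 the difference was -0.74 (95% interval -1.54 to 0.06), which includes 0.

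The highest value of Txndc5, 107 FPKM, came from the library labelled Ctrl_TTXwd 3, which had the highest microglia marker sum, 1593 FPKM. The lowest, 19.3 FPKM, came from KD_TTXwd 2, which had the lowest sum, 37.6 FPKM. KD_TTXwd 3 had a sum of 487 FPKM with Txndc5 at 34.6 FPKM. Ctrl_TTXwd 2 had a sum of 92.0 FPKM with Txndc5 at 55.4 FPKM. Within Ctrl_TTXwd, sums of 713, 92.0 and 1593 FPKM stood beside Txndc5 at 71.8, 55.4 and 107 FPKM, in the same order. Within KD_TTXwd, sums of 351, 37.6 and 487 FPKM stood beside Txndc5 at 34.7, 19.3 and 34.6 FPKM, which is not the same order. The astrocyte marker sums, over 8 of 8 genes, ranged from 1413 to 2692 FPKM in Ctrl_TTXwd, highest in the library labelled Ctrl_TTXwd 3, and from 834.5 to 1641 FPKM in KD_TTXwd, lowest in KD_TTXwd 2. The sums of the 10 microglia markers ranged from 187 to 404 FPKM in Ctrl_TTX, from 165 to 543 FPKM in KD_TTX, from 92.0 to 1593 FPKM in Ctrl_TTXwd and from 37.6 to 487 FPKM in KD_TTXwd, and their part in the result was not tested. Without the library labelled Ctrl_TTXwd 3, the log2 change of Txndc5 with knockdown after withdrawal was -1.12 (limma adjusted p = 0.1803) and its value with withdrawal in control cultures was 0.35.

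Manf and Hspa5 were also lower in every KD_TTXwd library than in any Ctrl_TTXwd library, at 74.1% and 77.9% of the control mean (exact permutation p = 0.1 for each, two-sided, the smallest possible). With Txndc5 these made 3 of 10 genes whose groups did not overlap, against 9.03% of all genes that were lower without overlap and 10.8% that were higher. Their limma adjusted p was 0.428 for Manf, with a log2 change of -0.43 (95% interval -0.86 to 0.01), and 0.688 for Hspa5. The other 7 genes overlapped, with log2 changes from -0.51 for Creld2 to 0.20 for Atf4. Without the library labelled Ctrl_TTXwd 3 these were -0.26 for Creld2 and 0.11 for Atf4, that of Manf was -0.32 and that of Hspa5 was -0.24. Averaged over TTX and withdrawal, 0 of 10 genes passed the limma test for knockdown, against 0.0187% of all genes. Of the 10, 1 gene, Txndc5, had an unadjusted p under 0.05, as did 685 of the 10689 genes. The test of the difference between the withdrawal responses called 0% of all genes, with 1050 genes and, of the 10, Txndc5 at an unadjusted p under 0.05. The comparisons of withdrawal in control cultures and of knockdown after withdrawal share the Ctrl_TTXwd libraries, so their values for a gene are not independent.

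Creld2, which encodes an ER protein with EGF-like domains that is induced by ER stress, and Pdia4 had closely similar profiles. Creld2 ranged from 13.4 to 35.3 FPKM and Pdia4 from 40.5 to 79.1 FPKM over the 12 libraries. The mean absolute difference of their log2(FPKM + 1) values, each centred on its own mean, was 0.141, the smallest between any of the 10 and its nearest neighbour among them. Atf4 and Herpud1 followed at 0.144, and Calr and Xbp1, the least variable genes, had 0.168. Manf stood farthest from the rest: its nearest neighbour was Hspa5, at 0.644, and it was the farthest neighbour of 8 of the other 9 genes. The exception was Atf4, whose farthest neighbour was Txndc5, at 0.709.

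Among all genes tested, those most like Manf by this measure over the 12 libraries were Pdgfa (0.2), Bri3bp (0.209), Ddx54 (0.215), Creb3l1 (0.215) and Trim8 (0.217). Creb3l1 encodes a membrane-bound transcription factor of the ER, also called OASIS, which is activated by cleavage as ATF6 is. It was 12.2, 8.94 and 7.34 FPKM in Ctrl_TTX and 2.504, 2.15 and 2.45 FPKM in Ctrl_TTXwd. With knockdown it was 5.69, 9.47 and 10.6 FPKM in TTX and 1.37, 2.25 and 2.73 FPKM after withdrawal. Its withdrawal libraries lay below all TTX libraries, as for 8.63% of all genes. The limma log2 changes were -1.62 (adjusted p = 0.00438) in control cultures and -1.61 (adjusted p = 0.00513) with knockdown. Creb3l1 was named here for its likeness to Manf over these same libraries, so its fall is no independent evidence of a decrease. The genes most like Ddit3 were Cope (0.258), Tbl3 (0.261), Psph (0.270), Trmt61a (0.272) and Gpr107 (0.280); Psph encodes the last enzyme of serine synthesis.

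The other genes of the pathway were taken as 6 lists. Averaged over both arms, withdrawal called 0 of 14 stress sensors and transducers, where the lowest limma adjusted p was 0.0715. Of the 14, 4 genes had an unadjusted p under 0.05, as did 4627 of the 10689 genes. Without Ctrl_TTX 1, 2 of them were higher and 1 was lower. With quantile normalization 3 were higher, when 1886 of the 10689 genes were called higher and 1711 lower. Without either Ctrl_TTXwd 2 or KD_TTXwd 2, 1 was higher. For list counts without single libraries, here and below, the share of all genes called in the same fit is not given. A change in such a count cannot be set against it. Of 28 tested targets of ATF4 and CHOP (31 listed), 2 were higher and 2 were lower, against 13.3% and 18.4% of all genes. Atf5, a transcription factor of the integrated stress response, fell with a log2 change of -1.35, and Cebpb, the partner of CHOP, with one of -1.07. The transsulfuration enzyme Cth had 0.75 and the serine synthesis enzyme Psat1 0.68. Without replicate 1 in the TTX groups, 2 of the 28 were higher and 9 were lower, against 16.4% and 22.5% of all genes. Without Ctrl_TTX 1 alone, 1 was higher and 4 were lower. Most of these targets were lowest in the libraries left out, so these counts are no independent evidence of a decrease. Without KD_TTXwd 2 none was higher, and without any 1 of KD_TTX 1, KD_TTX 2, the other KD_TTXwd libraries or the Ctrl_TTXwd libraries 1 was higher, with 2 lower. The list's median was 0.02, against -0.01 over all genes tested.

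Of 34 ER chaperones and folding enzymes tested (38 listed), 5 were higher and 1 was lower averaged over both arms, against 13.3% and 18.4% of all genes, so the number higher is near the share of all genes. Sdf2, a cofactor of ER chaperones, rose from 53.0 ± 1.81 to 107 ± 4.22 FPKM in control cultures (SD, n = 3), and its averaged log2 change was 0.82 (limma adjusted p = 0.000481). The prolyl isomerase gene Fkbp7 (0.67) and the glucosidase gene Ganab (0.52) were also higher, and the thioredoxin-domain gene Txndc11 was lower (-0.55). Of 30 tested genes of translocation and signal peptide processing (31 listed), 5 were higher and 1 was lower, with the signal peptidase subunits Sec11a (0.77) and Spcs1 (0.70) and the translocon-associated Ssr2 (0.70) higher and the oligosaccharyltransferase Stt3b (-0.56) lower. Without any 1 of KD_TTX 1, KD_TTX 2, Ctrl_TTX 1, Ctrl_TTXwd 2, the library labelled Ctrl_TTXwd 3 or the KD_TTXwd libraries, 3 genes of this list were higher in place of 5. For the chaperones the number higher ranged from 3, without Ctrl_TTX 2, Ctrl_TTX 3 or KD_TTXwd 3, to 7, without Ctrl_TTX 1, KD_TTX 1 or Ctrl_TTXwd 2. With quantile normalization 8 chaperones and 7 translocation genes were higher and 1 of each was lower, against 1886 and 1711 of the 10689 genes. The medians were 0.13 for chaperones and 0.10 for translocation.

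Of 25 tested genes of ER-associated degradation (30 listed), 4 were higher and 7 were lower averaged over both arms, against 13.3% and 18.4% of all genes. The cytosolic deglycosylase Ngly1 (0.74) and the selenoprotein Vimp (0.64), which recruits the p97 ATPase to the ER, were higher. The ubiquitin ligases Rnf5 (-0.63) and Syvn1 (-0.53), the latter known as HRD1, were lower. With quantile normalization 5 were higher and 5 were lower, against 1886 and 1711 of the 10689 genes. Of 14 tested relatives of the 10 genes (15 listed), Creb3l1 was lower, and Nenf (0.55), another secreted neurotrophic factor, and the ER calcium-binding protein gene Rcn2 (0.51) were higher. Without KD_TTX 2 or KD_TTXwd 3, 1 of these relatives was higher in place of 2. With quantile normalization no gene called in these lists changed sign, and Os9 and Ubxn4 of the degradation list, named for this loss, were no longer called averaged over both arms, nor was Txndc11 with knockdown. In the knockdown comparisons and in the difference between the responses, 0 genes of every list passed the limma test. Per list and comparison, 1 to 4 genes had an unadjusted p under 0.05. Of all 10689 genes, 412 were under it for knockdown in TTX and 1276 for knockdown after withdrawal. For knockdown averaged over both it was 685, and for the difference 1050. With knockdown in TTX the median log2 change was highest for the ATF4 and CHOP targets, at 0.23, and 26 of these 28 genes had a positive value, against 5195 of 10689 genes. That median was -0.09 without Ctrl_TTX 1, -0.05 without KD_TTX 3, 0.48 without KD_TTX 1 and 0.11 without KD_TTX 2, so its sign rests on single libraries. In control cultures alone, where 6.61% of all genes were called higher and 11.1% lower, the counts of higher and lower genes with withdrawal were 0 and 1 for ATF4 and CHOP targets, 5 and 0 for chaperones, 4 and 0 for degradation and 4 and 0 for translocation. Without the library labelled Ctrl_TTXwd 3 they were 0 and 1, 2 and 0, 2 and 1, and 1 and 1. The share of all genes called without that library is not given here. With knockdown, where 4.95% of all genes were called higher and 9.22% lower, the counts in the same order were 1 and 3, 1 and 1, 1 and 4, and 2 and 0.

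**Figure D5:**
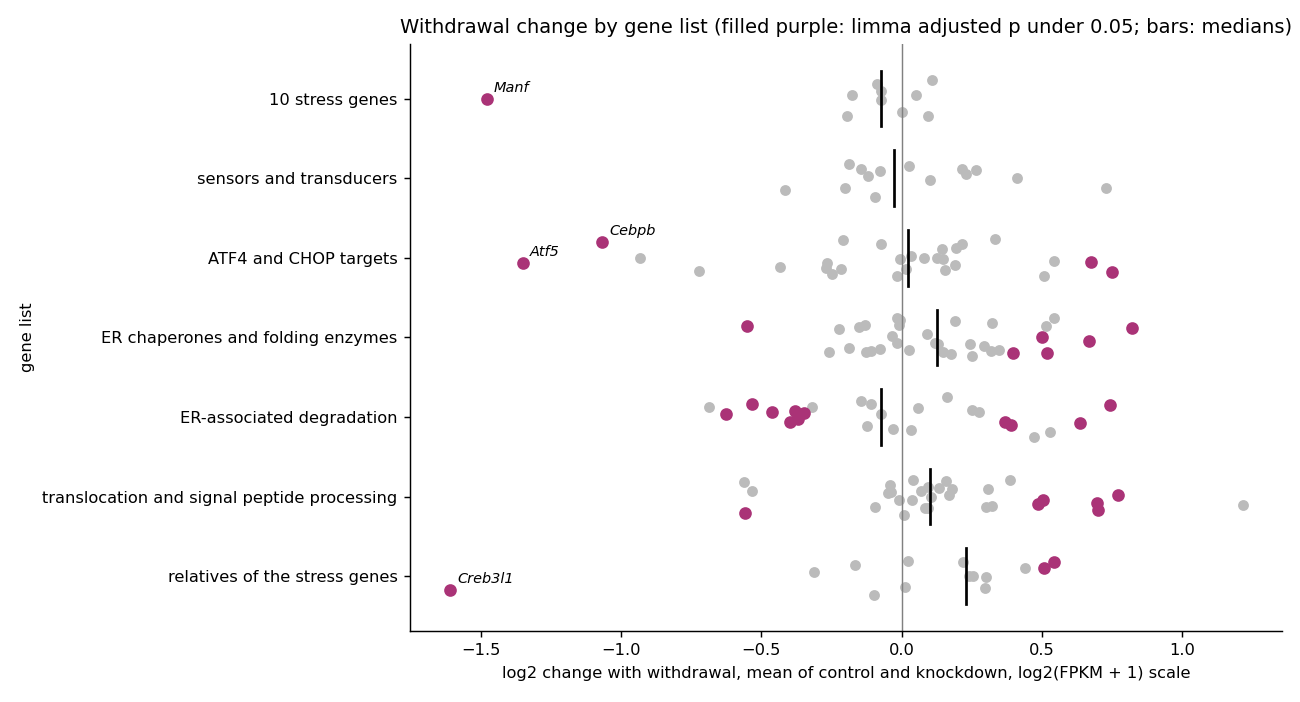
Log2 change with withdrawal, averaged over both arms, of the 10 genes and of 6 lists of other pathway genes (1 row per list, points are genes with vertical jitter, bars are medians; purple, limma adjusted p under 0.05). Manf at -1.48, Creb3l1 at -1.61, Atf5 at -1.35 and Cebpb at -1.07 are the called genes beyond 1, and the chaperone and translocation lists have more called genes to the right of 0 than to the left.

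The authors' deposited table gave a q-value under 0.05 for 4 of the 40 values of the 10 genes in its 4 comparisons. In the authors' deposited table, Manf had a log2 fold change of -1.37 with withdrawal in control cultures and -1.64 with knockdown (q = 0.00102 for each). Txndc5 had 0.65 with withdrawal in control cultures (q = 0.0431) and -1.40 with knockdown after withdrawal (q = 0.00102) in the authors' deposited table. The share of its genes under that q was 22.9% for withdrawal in control cultures, 19.0% for withdrawal with knockdown, 7.59% for knockdown after withdrawal and 2.16% for knockdown in TTX, made up of 0.336% of all genes that were higher and 1.83% that were lower. The Txndc5 values have the same direction as the limma estimates, which did not pass.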

How the data were processed

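Polyadenylated RNA of 12 rat hippocampal culture libraries was sequenced as stranded 50-nucleotide single-end reads, per the labels' protocols. The authors deposited gene-level FPKM per library, with their own log2 fold changes and q-values. Trimmomatic, TopHat2, Cufflinks, Cuffdiff and build rn5 are named in the submitters' processing notes, and their versions are not given in the sources used here. Of 10730 genes in the deposited table, 1 was dropped, since its library values averaged more than 1.0% away from the authors' group value. The lowest FPKM in Ctrl_TTX 1 is 1.00 while other libraries reach 0, so genes silent in that library are not in the table. The shares over all genes and the replicate 1 ratios therefore leave out genes silent in Ctrl_TTX 1, whatever their level elsewhere. FPKM hide read depth, and a library dominated by a few genes lowers all others.

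Values were analysed as log2(FPKM + 1) with limma 3.58.1 in R 4.3.3 (mean-variance trend, 4 group means over all 12 libraries, 8 residual degrees of freedom), and p-values were adjusted by Benjamini-Hochberg over 10689 genes with FPKM of at least 1 in at least 3 libraries. Fold changes on this scale understate the change of low genes. The fit was tested on simulated data. Single values of 3 against 3 libraries were compared by a two-sided exact permutation test. The 10 genes and all lists were chosen with earlier results of these data known. All 10 genes are named, and from each list up to 4 called genes per comparison by size of change, with the 5 genes most like Manf and Ddit3; exceptions are stated.

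Same-numbered libraries of Ctrl_TTX and KD_TTX deviated together (correlations of deviations from group means 0.617, 0.436 and 0.667). The main fit did not pair libraries, and the number entered as a block only in alternative fits. In each of the other comparisons at least 1 pair lay below 0.1. For Ctrl_TTXwd and KD_TTXwd the correlations were -0.331, 0.875 and 0.563. Alternatives changed the pseudocount to 0.1, the filter (none, or mean FPKM of at least 5), the scaling, the variance model, the libraries fitted, a correction for locus span, the replicate block and the libraries left out. Promoter sequences came from RefSeq, assembly GRCr8; they were matched by symbol.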

Additional observations from a re-analysis of the deposited data

How the results depend on the processing

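Of 1730 values of the 70 gene results (10 genes in 7 comparisons) under the alternatives, 1711 kept their direction and side of the threshold or were called in neither fit; 4 lost the call, 13 gained one, 2 reversed, and 102 uncalled values changed sign. Manf remained past the limma threshold in 22 of 25 alternatives for withdrawal in control cultures (-1.48 to -1.22), 24 of 25 with knockdown (-1.75 to -1.42) and 24 of 24 averaged over both arms (-1.61 to -1.39). The count of the 10 genes called was 1 in each of these comparisons. In control cultures it was 0 with only the libraries compared (Manf -1.35, adjusted p = 0.0615, when 1 gene of all was called), and 0 without replicate 2 (-1.22, adjusted p = 0.0810) or replicate 3 (-1.40, adjusted p = 0.0718) of all groups, when 0 and 4 genes of all were called. With knockdown it was 0 without replicate 2 (Manf -1.74, adjusted p = 0.172), when 0 genes of all were called. Leaving out libraries or replicate numbers gave 0 to 1 called genes in control cultures, 0 to 4 with knockdown and 1 to 5 averaged over both arms. The highest counts came without replicate 1: 4 with knockdown and 5 averaged, both when it was left out of all groups and when it was left out of the TTX groups, the latter chosen after the values were seen. Without KD_TTX 1 alone the count with knockdown was 2, when 697 genes of all were called. The averaged change of Ddit3, 0.10 with all libraries, reversed to -0.58 and -0.50 in these fits and reached 0.53 without replicate 3 of all groups, so leaving out libraries gave -0.58 to 0.53. The cause was not tested. The replicate block changed no call of the 10 genes (1, 1 and 1 with withdrawal, 0 with knockdown in TTX). Quantile normalization moved the share of all calls that were higher, averaged over both arms, from 42% to 52.4%, and median-ratio scaling to 45.6%. Depth is unknown, and 3 libraries per group limit the precision: the 95% interval of Ddit3 for knockdown in TTX ran from -0.56 to 1.92.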
